A study of Homo sapiens with 12 samples.

Results

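HCT116, an established line of human colorectal carcinoma cells, was compared after transfection with a plasmid for FLAG-tagged SMC5 (SMC5 cells) and after transfection with a control plasmid (GFP cells). The control is called GFP in the titles of the samples and vector in the design text. The 4 SMC5 libraries and the 4 GFP libraries were pooled over treatment, 8 of the 12 libraries of the study, and the other 4 came from cells given an NSE4A-flag plasmid (NSE4 cells). The cell line is labelled wild type in every group, so the endogenous SMC5 gene was present beside the plasmid. The transfected cultures were split after 24 h, and the portions received PBS or 1000 nM doxorubicin, an anthracycline that traps topoisomerase II on DNA, for 24 h. The groups were thus SMC5 with PBS, SMC5 with doxorubicin, GFP with PBS and GFP with doxorubicin, each with 2 libraries. No source used here gives the share of cells that took up a plasmid. In these bulk samples a change in every cell cannot be told apart from a larger change in part of the cells, nor fewer cells of a type from less RNA per cell. The comparison asks which transcripts differ with the SMC5 plasmid when the effect of doxorubicin is held as an additive term.

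SMC5 and SMC6 are long coiled-coil ATPases that pair at a hinge. The kleisin NSE4, made from NSMCE4A or from its paralogue EID3, joins their heads, and the NSE1 and NSE3 proteins bind the kleisin. NSE2 is a SUMO ligase that docks on the SMC5 arm. The complex acts in homologous recombination and at stalled replication forks, and it silences circular DNA that is not part of the chromosomes, such as viral genomes and plasmids. SLF1, SLF2 and SIMC1 recruit it to damaged or extrachromosomal DNA.

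Expression was given as FPKM, fragments per kilobase of transcript scaled to the mapped fragments of a library, for 57908 loci. In which low loci they detected, the 2 SMC5 libraries with doxorubicin differed by less than sampling noise: 7 loci were above 0 in 1 of them alone, against 4216 to 5291 such loci in the other pairs. At 1091 loci above 0 their values were the same to the last digit, which no other pair showed at any locus, and their Pearson r was 0.99943. Abundant loci did differ between them, with mitochondrial shares of 45.6 and 38.9% of summed FPKM and SMC5 at 850 and 772 FPKM. Their mean was counted as 1 sample, which left 3 SMC5 and 4 GFP samples. Depth, judged roughly from the steps between low values, was 13.5 to 21.1 M (1e6) fragments. Loci above 0 numbered 23820 to 26184 in SMC5 and 23635 to 25566 in GFP samples (exact permutation within treatment, two-sided p = 0.222). The mitochondrial share of summed FPKM ran from 30.8 to 42.3% and from 28.9 to 40.0% (same exact permutation test, p = 0.278). The smallest p these samples allow is 0.111. Epithelial markers summed to 2308 to 2552 FPKM in SMC5 and 2183 to 2469 FPKM in GFP samples. Most of each sum came from the keratins KRT8, at 1205 to 1677 FPKM, and KRT18, at 391.9 to 693.7 FPKM. The intestinal members were low in both groups. CDX2 was at 2.997 to 6.983 FPKM. KRT20 was at 0.9421 to 1.108 FPKM with PBS and 4.744 to 5.909 FPKM with doxorubicin. VIL1 was at 0.03241 to 0.1408 and 1.198 to 2.43 FPKM. Mesenchymal markers summed to 34.8 to 52.7 and 33.6 to 57.0 FPKM, leukocyte markers to 0.977 to 3.16 and 1.33 to 4.32 FPKM, and hepatocyte and neural markers to 15.7 to 28.5 and 15.02 to 26.2 FPKM. Each of these 3 lists had 1 gene at 0 in all 7 samples (LUM, CD3D and TTR), while some members were expressed in both groups, such as the collagen COL1A1 at 16.1 to 27.0 FPKM and the synaptic gene SYT1 at 3.03 to 14.9 FPKM.

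SMC5 itself separated the groups. Its level was 875 and 979 FPKM in SMC5 cells with PBS and 811 FPKM with doxorubicin. In GFP cells it was 33.5 and 8.76 FPKM with PBS and 18.6 and 7.02 FPKM with doxorubicin. Every SMC5 sample lay far above every GFP sample, while the GFP libraries of one treatment were themselves uneven. On the log2(FPKM + 1) scale SMC5 was higher by 5.80 (SE 0.46, 95% interval 4.72 to 6.89), a 55.8-fold difference. Its limma p of 3.44e-06 was the smallest of all 15173 loci tested, and its adjusted p was 0.0521, just above the threshold of 0.05. SMC5 passed in 5 of 20 alternatives, among them a minimum of 5 FPKM (adjusted p = 0.015) and the fit without GFP replicate 1 (0.004), and over all 20 its adjusted p ran from 0.004 to 0.503. The FPKM of this locus sums plasmid and endogenous transcripts.

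No locus passed the adjusted test: 0 rose (0%) and 0 fell (0%) of 15173. Leaving out 1 sample gave 5 called loci without GFP replicate 1, 3 without SMC5 replicate 1, 3 without SMC5 replicate 2, 7 without the doxorubicin-treated SMC5 sample and 0 without each of the other 3. At an unadjusted p under 0.05 there were 555 loci (3.66%), 338 higher (2.23%) and 217 lower (1.43%) in SMC5 cells. In the same fit doxorubicin raised 3765 loci and lowered 3264 (46.3% in all). The median absolute log2 difference was 0.07 for the plasmid and 0.33 for doxorubicin. For 14254 loci (93.9%) the 95% interval of the SMC5 difference lay within 2-fold in either direction, and among the 7403 loci with a mean of at least 10 FPKM this share was 98.4%. Within 1.5-fold the shares were 81.9% and 95.4%. An estimate of at least 2-fold was seen at 124 loci, 75 higher and 49 lower, of which 31 had a mean of at least 10 FPKM. The matching number for doxorubicin was 1331 loci.

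**Figure D1:**
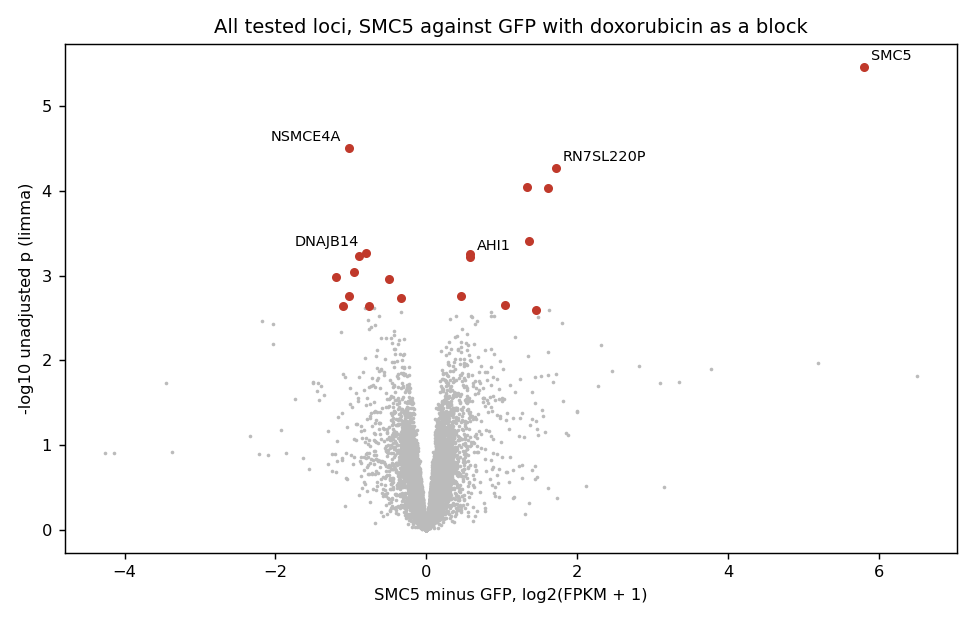
Each point is 1 of the 15173 tested loci, with the SMC5 minus GFP difference on the log2(FPKM + 1) scale on the x axis and −log10 of limma's unadjusted p on the y axis. Red points are the 10 higher and 10 lower named loci of smallest p, and SMC5, at 5.80, stands apart from the others.

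The kleisin gene NSMCE4A was lower in SMC5 cells and ranked just after SMC5 by p. It was at 43.1 and 32.6 FPKM in SMC5 cells with PBS and at 37.5 FPKM with doxorubicin. GFP cells held 68.7 and 74.8 FPKM with PBS and 85.7 and 89.4 FPKM with doxorubicin. All SMC5 samples were below all GFP samples. The log2 difference was −1.03 (SE 0.11, 95% interval −1.30 to −0.77, limma unadjusted p = 3.09e-05, adjusted p = 0.235), a ratio of 0.489. It was −0.92 within PBS and −1.20 within doxorubicin samples. NSMCE4A passed the adjusted test in 3 of 20 alternatives: with the NSE4 samples added to the fit (0.0216), with the 2 SMC5-DOX columns counted separately (0.0334) and without SMC5 replicate 1 (0.017). The estimate stayed between −1.20 and −0.92 in all 20. Its level in NSE4 cells, which carry the NSE4A plasmid, was 4069 to 6287 FPKM.

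The other members of the complex showed no difference of this size. SMC6, the partner of SMC5, stood at 10.0, 10.5 and 9.86 FPKM in SMC5 cells, against 10.2, 9.77, 8.89 and 10.4 FPKM in GFP cells. The groups overlapped, and the log2 difference was 0.03 (95% interval −0.16 to 0.23). NSMCE1, a RING-domain subunit, differed by 0.05 (−0.18 to 0.29), NSMCE2, the SUMO ligase, by 0.04 (−0.18 to 0.25), and NSMCE3, a MAGE-family subunit, by 0.01 (−0.23 to 0.25). The signs of NSMCE1, NSMCE2, NSMCE3 and SLF1 turned in some alternatives. EID3, the NSMCE4A paralogue, stayed near 1 FPKM in both groups, with a difference of 0.15 (−0.20 to 0.50). Among the recruiting factors SLF1 differed by 0.14 and SLF2 by 0.12. SIMC1 had 9.02, 8.54 and 7.27 FPKM in SMC5 cells against 6.33, 7.05, 6.91 and 6.37 FPKM in GFP cells. Its groups did not overlap, and its log2 difference was 0.25 (SE 0.09, unadjusted p = 0.0281, adjusted p = 1.00). Of the 10 genes 9 had a positive and 1 a negative difference, with a median of 0.09 against 0.00 over all loci, and SMC5 itself is 1 of the 9. The median of the list was 0.15 within PBS and −0.03 within doxorubicin samples. In 3 of the 10 genes, SMC5, SLF2 and SIMC1, every SMC5 sample lay above every GFP sample of its treatment, where 4.74% of all loci did. In 1, NSMCE4A, every SMC5 sample lay below, where 4.01% of all loci did.

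**Figure D2:**
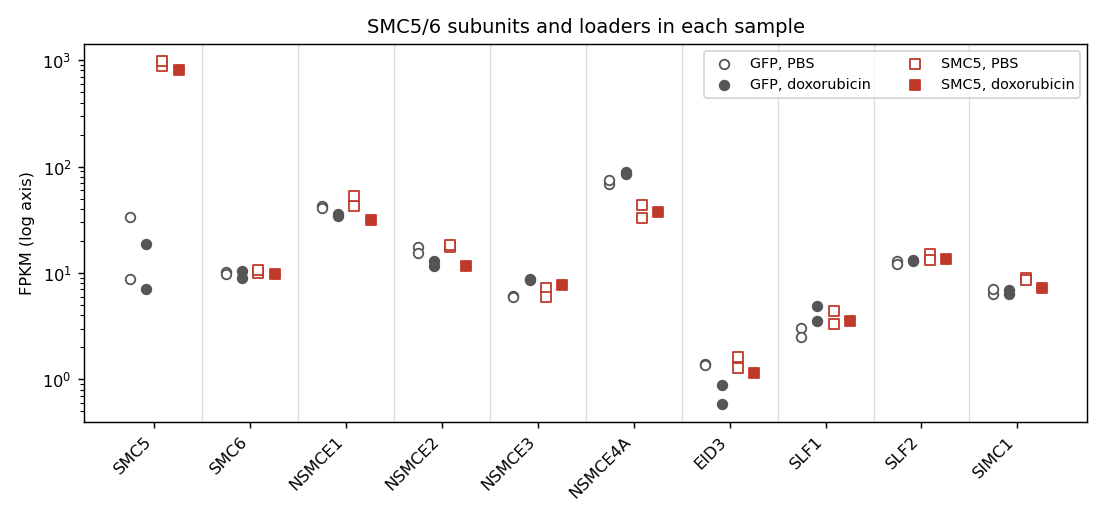
FPKM on a log axis of the 10 SMC5/6 subunits and loaders in each of the 7 samples, circles for GFP and squares for SMC5 cells, open with PBS and filled with doxorubicin. SMC5 lies at 811 to 979 FPKM in SMC5 cells, and NSMCE4A at 32.6 to 43.1 FPKM against 68.7 to 89.4 FPKM in GFP cells.

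Apart from SMC5 and NSMCE4A, the loci of smallest p were mostly low or short. Of the 20 loci that are the 10 of smallest p in each direction, 6 are protein coding, against 11814 of all 15173 tested. Their median level was 2.97 FPKM against 9.51 FPKM over all loci. None passed the adjusted test, and their values are given as a description.

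AHI1, a ciliary transition zone protein, was at 10.1, 9.82 and 8.27 FPKM in SMC5 cells. In GFP cells it was at 6.67 and 7.13 FPKM with PBS and at 4.17 and 4.96 FPKM with doxorubicin. All SMC5 samples were above all GFP samples, and the log2 difference was 0.58 (SE 0.10, unadjusted p = 6.04e-04, adjusted p = 0.917). NSE4 cells were at 8.96 and 8.00 FPKM with PBS and 4.98 and 4.76 FPKM with doxorubicin. IZUMO4, of the IZUMO family of sperm proteins, was at 5.76 and 6.47 FPKM in SMC5 and 3.79 and 4.67 FPKM in GFP cells with PBS. With doxorubicin it was at 14.9 FPKM against 10.7 and 10.0 FPKM, and its log2 difference over both treatments was 0.46. The groups did not overlap within either treatment. In NSE4 cells IZUMO4 was at 4.46 and 6.45 FPKM with PBS and 13.4 and 13.3 FPKM with doxorubicin. HLA-DQB1, a chain of a class II antigen-presenting molecule, was at 1.22, 2.09 and 2.15 FPKM against 0.396, 0.539, 0 and 0.504 FPKM. It met the filter of 1 FPKM through SMC5 samples alone, so the filter favoured a higher value in SMC5 cells. NSE4 cells were at 0.933 and 5.38 FPKM with PBS and 0 and 0.390 FPKM with doxorubicin.

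DNAJB14, a membrane-anchored co-chaperone of the endoplasmic reticulum, was lower in SMC5 cells. It was at 13.3 and 10.8 FPKM with PBS and 8.36 FPKM with doxorubicin, against 19.5, 17.7, 17.9 and 20.6 FPKM in GFP cells. Every SMC5 sample was below every GFP sample, with a log2 difference of −0.80 (SE 0.14, unadjusted p = 5.37e-04, adjusted p = 0.917). NSE4 cells, at 9.70 to 34.0 FPKM, spanned both groups. APTR, a long noncoding RNA named for an action on the gene of the cell cycle inhibitor p21, was at 6.70, 5.42 and 8.49 FPKM against 8.62, 9.40, 12.4 and 11.7 FPKM (log2 difference −0.49, unadjusted p = 0.00109). LINC02008, an intergenic RNA with 2 loci of that name in the table, was at 2.13, 1.95 and 1.06 FPKM against 3.53 to 4.21 FPKM. The log2 differences of the antisense and intergenic loci AL117379.1, AC073896.3, OPA1-AS1, AC104116.1, AL352979.2 and AC100835.2 ran from −1.20 to −0.34. In AL117379.1, AC073896.3, OPA1-AS1 and AC100835.2 no SMC5 sample reached the filter of 1 FPKM. These loci were kept through GFP samples alone, so the filter favoured lower values in SMC5 cells. Reads of an antisense locus and its partner cannot be told apart, because no source used here says that the counting used strand.

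Several of the loci with higher values were listed at 0 in all 4 GFP samples. Such loci met the filter of 1 FPKM through SMC5 samples alone, so they had to come out higher in SMC5 cells. RN7SL220P, a pseudogene of the signal recognition particle RNA, was at 3.63, 2.20 and 1.60 FPKM in SMC5 cells. RN7SL851P, another such copy, was at 3.33, 1.94 and 1.41 FPKM. AC114402.1, a processed pseudogene, was at 1.14, 1.31 and 2.09 FPKM. These 3 loci are 300 to 328 bases long, and over the 254 loci of 290 to 310 bases the lowest value above 0 had a median of 1.62 FPKM and lay between 1.11 and 2.82 FPKM from the 10th to the 90th percentile. The SMC5 values thus lie near the smallest steps that such short loci show. Multi-copy families also share reads, so which copy they came from is uncertain. RN7SL220P was also at 1.80 and 3.39 FPKM in doxorubicin-treated NSE4 cells. RN7SKP16, a 7SK pseudogene, was at 6.33, 5.37 and 4.11 FPKM against 1.52, 1.87, 1.76 and 0 FPKM. In NSE4 cells it was at 1.89 and 4.49 FPKM with PBS and 1.66 and 4.25 FPKM with doxorubicin.

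**Figure D3:**
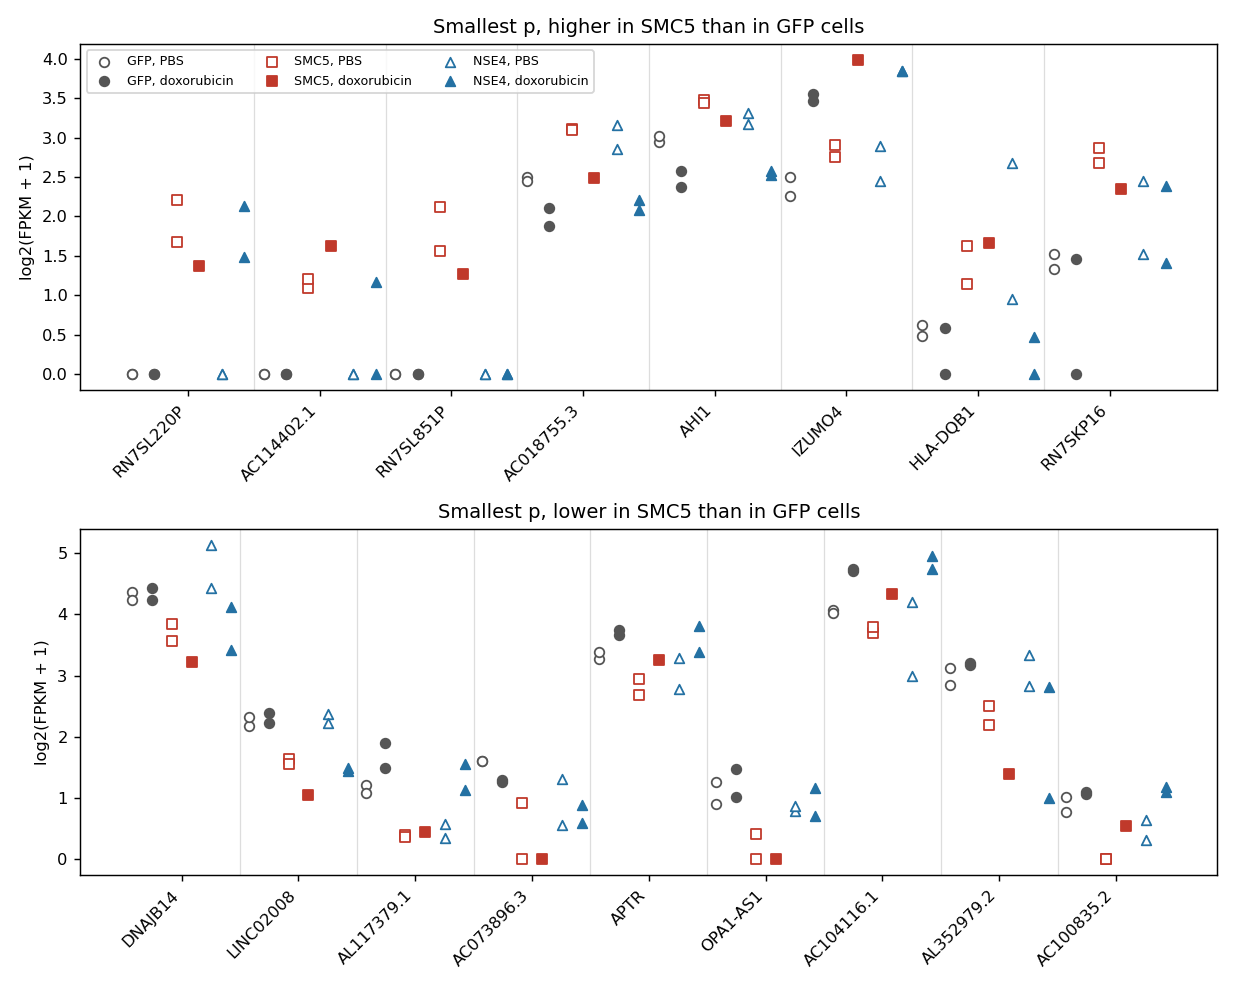
Level on the log2(FPKM + 1) scale in each sample for 17 of the 20 loci, SMC5 and NSMCE4A not among them, circles for GFP, squares for SMC5 and triangles for NSE4 cells, open with PBS and filled with doxorubicin. Within each treatment the SMC5 squares lie on one side of the GFP circles, and the first 3 loci of the upper panel are at 0 in all GFP samples.

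Interferon-stimulated genes were slightly higher in SMC5 than in GFP cells, and none passed the adjusted test. The list was chosen with earlier results of these data known. Of 29 members 24 have a locus of their own and 19 were kept. Of these, 18 had a positive and 1 a negative difference, with a median of 0.26 against 0.00 over all loci. In 14 of 19 every SMC5 sample lay above every GFP sample of its treatment, where 4.74% of all loci did, and 10 of 19 had an unadjusted p under 0.05, where 3.66% of all loci did. The median was 0.28 within PBS and 0.18 within doxorubicin samples, and it ran from 0.18 to 0.29 over the alternatives. Adjusted p-values were 1.00.

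Promoters of the 4 members of smallest p that have a single RefSeq entry are shown because 18 of the 19 members differ in one direction. Each line holds the 250 bases before the start, 5′ to 3′ on the gene's strand, from the RefSeq table of build GRCh38.p14. The spans are chr10:89392373-89392622 on the plus strand for IFIT1, chr19:39296157-39296406 on the plus strand for IFNL1, chr1:27672193-27672442 on the minus strand for IFI6 and chr19:17405631-17405880 on the minus strand for BST2. Capitals mark each place where 2 copies of GAAA stand on the same strand with any 2 bases between them, searched on both strands, and overlapping matches are run together. Repeats of this kind are known as binding sequences of interferon regulatory factors.
IFIT1 promoter: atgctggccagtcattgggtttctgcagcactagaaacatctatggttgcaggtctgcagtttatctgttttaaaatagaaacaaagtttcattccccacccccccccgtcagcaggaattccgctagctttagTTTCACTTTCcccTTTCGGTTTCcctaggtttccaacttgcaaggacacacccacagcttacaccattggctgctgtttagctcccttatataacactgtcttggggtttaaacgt
IFNL1 promoter: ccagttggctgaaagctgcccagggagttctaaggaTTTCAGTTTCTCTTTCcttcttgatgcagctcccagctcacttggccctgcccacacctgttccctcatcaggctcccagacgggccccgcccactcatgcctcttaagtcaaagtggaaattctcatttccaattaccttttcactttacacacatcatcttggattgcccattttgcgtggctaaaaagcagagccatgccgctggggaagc
IFI6 promoter: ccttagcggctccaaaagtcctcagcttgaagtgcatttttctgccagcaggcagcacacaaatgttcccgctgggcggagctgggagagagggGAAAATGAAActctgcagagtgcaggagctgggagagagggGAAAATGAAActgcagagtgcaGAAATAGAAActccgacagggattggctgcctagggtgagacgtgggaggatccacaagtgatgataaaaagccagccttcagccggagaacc
BST2 promoter: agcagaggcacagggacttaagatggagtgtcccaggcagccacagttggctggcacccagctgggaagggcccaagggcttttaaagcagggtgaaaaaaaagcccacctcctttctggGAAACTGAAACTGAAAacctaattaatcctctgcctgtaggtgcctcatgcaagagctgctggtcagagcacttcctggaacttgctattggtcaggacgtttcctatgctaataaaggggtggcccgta
IFIT1 and IFNL1 hold 2 matches each on the reverse strand, IFI6 holds 3 and BST2 holds 2 on the forward strand. Of the 19 loci 14 have an entry in the table, and 12 of these hold a match in any of their entries, against 3.02% of all 35116 promoters. The 12 are genes with a match in any entry, while the 3.02% is a share of single promoters, so the measures differ. The genes were listed because they are interferon-stimulated, so their share of matches says nothing of the SMC5 difference. A match is a description of these letters and not of binding.

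Among the sensors and antiviral effectors, IFIT1, which binds foreign RNA caps, was at 29.03, 24.6 and 22.2 FPKM in SMC5 cells, against 20.3, 19.4, 16.1 and 19.3 FPKM in GFP cells. All SMC5 samples exceeded all GFP samples, with a log2 difference of 0.37 (SE 0.10, unadjusted p = 0.0053). BST2, or tetherin, which holds budding virus at the membrane, was at 52.7 and 54.4 against 41.4 and 46.7 FPKM with PBS and at 38.1 against 27.7 and 32.8 FPKM with doxorubicin. Its log2 difference was 0.30 (unadjusted p = 0.0083). IFI6, an antiviral membrane protein, was at 1305 and 1407 against 916 and 1104 FPKM with PBS and at 1548 against 1310 and 1417 FPKM with doxorubicin, a log2 difference of 0.33. DDX58, the RNA sensor RIG-I, differed by 0.24, and OAS1, which makes an oligoadenylate messenger, by 0.38.

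IFNL1, a type III interferon, had the largest difference of the list, 0.63 (SE 0.17, unadjusted p = 0.0064). It was at 2.52 and 3.72 against 1.17 and 1.36 FPKM with PBS and at 5.85 against 4.81 and 4.38 FPKM with doxorubicin. ISG15, a ubiquitin-like modifier, differed by 0.29. MX1, a dynamin-like antiviral GTPase, was the exception at −0.12, with overlapping groups near 1 FPKM. Between SMC5 and NSE4 cells, in a fit without the GFP samples, the 19 differences ran from −0.15 to 0.11 (median 0.04), 12 of them positive. In that fit 0 of 19 had an unadjusted p under 0.05, near the 2.92% of all loci.

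**Figure D4:**
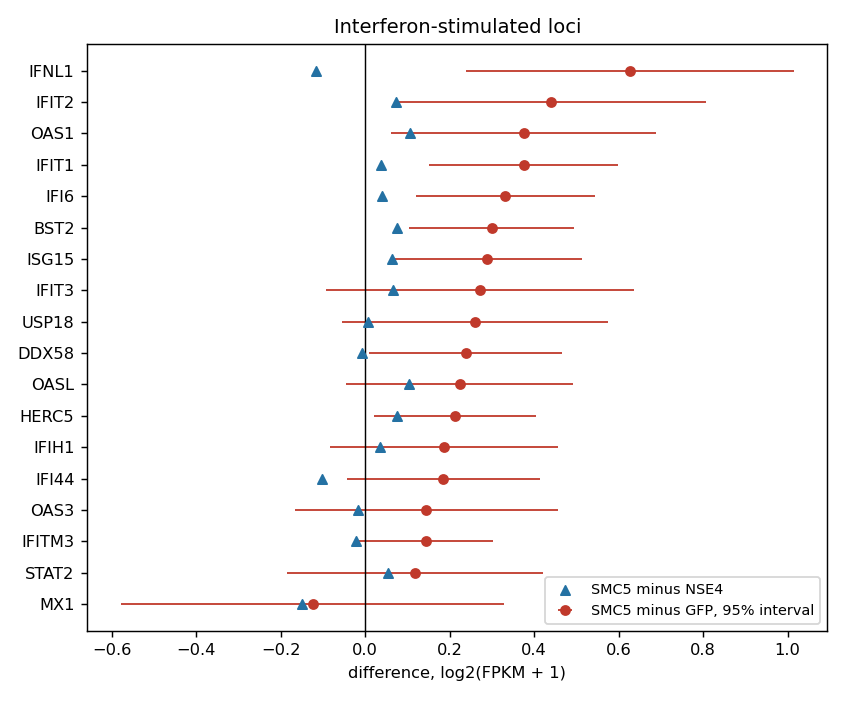
Differences on the log2(FPKM + 1) scale for 18 of the 19 interferon-stimulated loci, with red circles for SMC5 minus GFP and their 95% intervals and blue triangles for SMC5 minus NSE4. The circles lie right of 0 for 17 of the 18 loci drawn, and the triangles between −0.15 and 0.11.

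p53 targets and apoptosis genes were examined because the stated purpose of the study concerns growth and doxorubicin-induced cell death. All 27 p53 target loci tested were called for doxorubicin, where 46.3% of all loci were, with a median change of 1.61. Their SMC5 differences ran from −0.10 to 0.17 (median 0.05). At an unadjusted p under 0.05 there were 0 of 27, near the 3.66% of all loci. GDF15, a stress cytokine among these targets, was at 542 and 622 against 512 and 548 FPKM with PBS and at 2202 against 1731 and 2170 FPKM with doxorubicin. Among pro-apoptotic genes, 16 tested with a median of 0.02, APAF1, the apoptosome scaffold, was at 8.85 and 8.83 against 7.35 and 7.36 FPKM with PBS and at 24.2 against 19.9 and 19.4 FPKM with doxorubicin. Its groups did not overlap within either treatment, and its difference was 0.26 (SE 0.07, unadjusted p = 0.0069, adjusted p = 1.00). The 7 anti-apoptotic loci had a median of 0.06.

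Recombination and replication genes had mostly negative differences, and none passed the adjusted test. Of 21 homologous recombination and Fanconi loci 16 had a negative difference (median −0.08). In 2 of the 21 the SMC5 samples lay below the GFP samples of both treatments, where 4.01% of all loci did. RBBP8, the end-resection factor CtIP, was at 11.6 and 12.3 against 15.9 and 14.5 FPKM with PBS and at 8.84 against 10.5 and 11.2 FPKM with doxorubicin. Its log2 difference was −0.30 (SE 0.08, unadjusted p = 0.0056, adjusted p = 1.00). PALB2, which links BRCA1 to BRCA2, differed by −0.24 and EXO1, a resection nuclease, by −0.30. Of 21 G1/S and replication loci 19 had a negative difference (median −0.09), among them the helicase subunits MCM4 at −0.33, MCM5 at −0.26 and MCM6 at −0.13. None of these 21 had an unadjusted p under 0.05, near the 3.66% of all loci. End-joining genes had a median of −0.02 over 9 loci, and mitotic genes −0.01 over 18.

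Related SMC complexes showed a median of −0.05 over 20 cohesin and condensin loci. NCAPD3, a condensin II subunit, was at 15.3, 15.4 and 14.3 FPKM against 17.3, 17.0, 15.97 and 17.4 FPKM (log2 difference −0.17, unadjusted p = 0.0424). STAG2, a cohesin subunit, was at 29.7 and 31.3 against 35.0 and 34.3 FPKM with PBS but at 28.5 against 11.1 and 13.5 FPKM with doxorubicin. The STAG2 difference was −0.18 with PBS and 1.15 with doxorubicin, and the interaction of plasmid by doxorubicin was 1.33, which did not pass. The values with doxorubicin and of the interaction rest on the single doxorubicin-treated SMC5 sample.

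Of the remaining lists, immediate early genes had a median of 0.19 over 15 loci, 13 of them positive, and that median moved from 0.07 to 0.29 depending on which GFP library with PBS was left out. FOS, a subunit of the AP-1 factor, was at 222 and 265 FPKM in SMC5 and 140 and 266 FPKM in GFP cells with PBS, so the groups overlapped. Linker histone HIST1H1C was at 38.5, 37.3 and 40.5 FPKM against 24.3, 32.1, 32.6 and 29.3 FPKM. Its difference was 0.41 (SE 0.10, limma unadjusted p = 0.0051). The 13 histone loci had a median of 0.03 and ran from −0.52 to 0.46. Of the 13 loci 3 had an unadjusted p under 0.05, where 3.66% of all loci did. POLR1A, the large subunit of RNA polymerase I, differed by −0.33 (unadjusted p = 0.0284). Cytosolic ribosomal proteins (22 loci) had a median of 0.04, cholesterol synthesis genes (16 loci) 0.00 and housekeeping genes (8 loci) 0.05. In 3 of the 8 housekeeping genes the SMC5 samples also lay above the GFP samples of their treatment, where 4.74% of all loci did, among them HPRT1 and GAPDH with differences of 0.16 and 0.11. Over all lists 347 loci were tested, 22 of them (6.34%) at an unadjusted p under 0.05 against 3.66% of all loci, and 10 of the 22 are interferon-stimulated loci. The interval lay within 2-fold for 340.

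**Figure D5:**
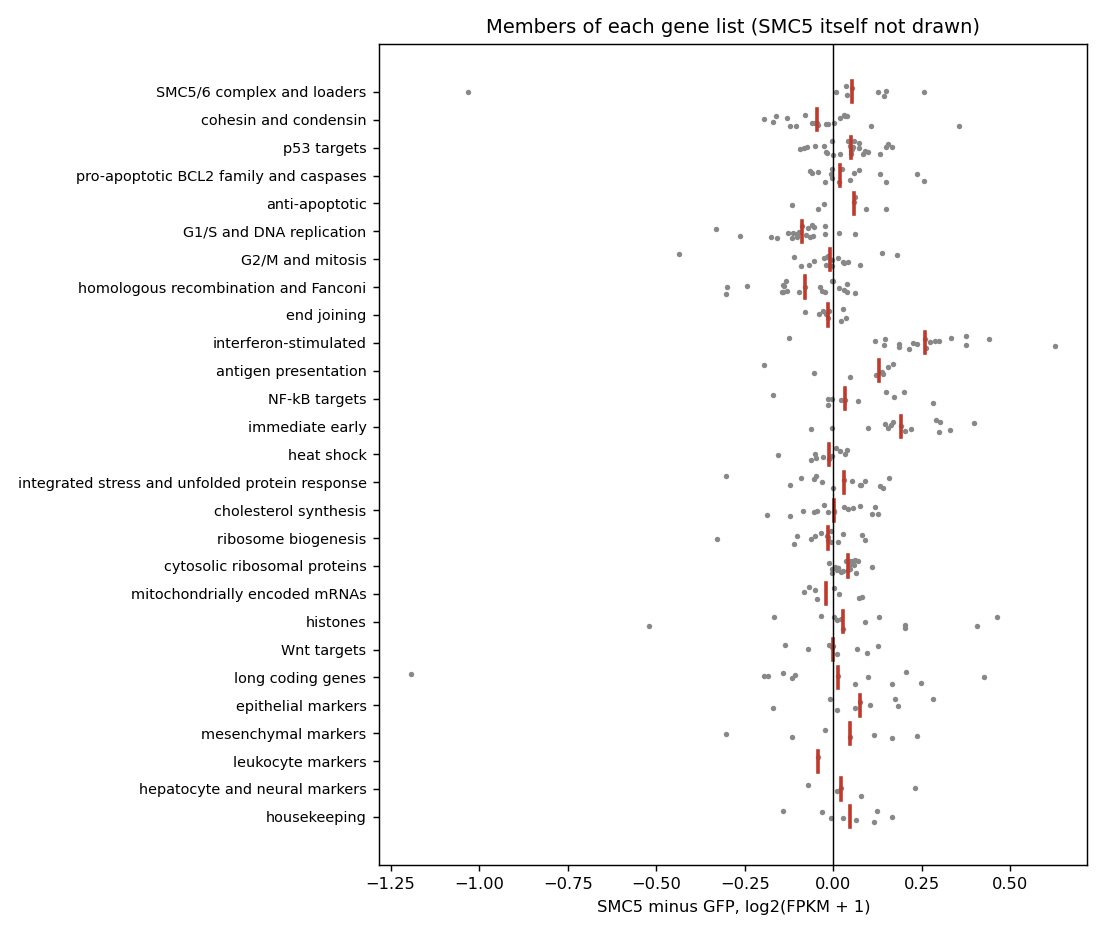
Each point is the SMC5 minus GFP difference of 1 list member on the log2(FPKM + 1) scale, and each red bar is the median of a list, drawn without SMC5 itself. The interferon-stimulated bar lies at 0.26, and the other bars lie between −0.09 and 0.19.

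The plasmid difference itself was also compared between treatments. The interaction term passed at 6 of 15173 loci (0.0395%), with 421 at an unadjusted p under 0.05. SVIL-AS1, named as antisense to SVIL but typed as a transcribed unprocessed pseudogene, is 1 of 3 loci of that name. It was at 10.7 and 13.2 FPKM in SMC5 cells with PBS and at 125 FPKM with doxorubicin. For that sample the 2 near-identical columns gave 117 and 134 FPKM. GFP cells held 12.1 and 13.0 FPKM with PBS and 7.08 and 8.73 FPKM with doxorubicin. The locus that holds AL360181.1 and BANF1P2 was at 68.0 FPKM in that SMC5 sample and between 0.690 and 1.59 FPKM in the other 6. Both values rest on the single doxorubicin-treated SMC5 sample, and the remaining 4 called loci, of 190 to 222 bases, are listed at 0 in 4 or 5 of the 7 samples. Of these, 3 were kept for testing through the 1 group of 2 samples in which they are above 0, so they had to differ between groups. Neither SMC5 nor NSMCE4A passed, with interactions of 0.36 and −0.28.

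Against NSE4 cells, in a fit of the SMC5 and NSE4 samples alone, 3 of 15173 loci passed (0.0198%), with 443 at an unadjusted p under 0.05. They were the plasmid genes SMC5 (log2 difference 5.75, adjusted p = 0.0248) and NSMCE4A (−6.94, adjusted p = 9.16e-06), and MT1DP, a metallothionein pseudogene locus of 191 bases (adjusted p = 0.0248). MT1DP was at 332 and 441 FPKM in SMC5 cells with PBS and 50.3 FPKM with doxorubicin, and it was listed at 0 in all 4 NSE4 samples. It was also at 173 FPKM in 1 GFP library and listed at 0 in the other 3. The loci were kept on SMC5 and GFP levels alone, so MT1DP entered without any NSE4 value, and loci seen in NSE4 cells alone could not be called. SMC5 did not pass without either NSE4 library with PBS, either SMC5 library with PBS, or the doxorubicin-treated SMC5 sample (adjusted p = 0.104 to 0.302). MT1DP did not pass without any 1 of the 4 NSE4 libraries or without either SMC5 library with PBS (adjusted p = 0.0592 to 0.198). NSMCE4A passed in all 10 alternatives of this comparison.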

How the data were processed

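Messenger RNA was sequenced in 12 libraries. The deposited values are FPKM per locus, made by the authors with TopHat and Cufflinks, per the submitters' processing notes. Versions, genome build, strand and annotation are not given in the sources used here, so no coordinates of the loci are printed. Values were analysed as log2(FPKM + 1) with limma 3.58.1 in R 4.3.3, with an intensity trend, plasmid and an additive doxorubicin term, over 7 samples with 4 residual degrees of freedom. Loci with at least 1 FPKM in at least 2 of the samples were kept (15173 of 57908). P-values were adjusted by Benjamini-Hochberg over all of them, with a threshold of 0.05, and "rose", "fell", "called" and "passed" refer to it. Differences of loci with low FPKM are understated on this scale, and an exact 0 can be a failed estimate. Depth was estimated only roughly from the spacing of low values. The script was tested on simulated data. No source says that replicate libraries came from different cultures, so p-values measure only how far these samples spread, which may be technical. PBS and doxorubicin portions of a plasmid may share a transfected culture, and they were counted as separate samples.

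Of 438 genes in 27 lists, 383 have a locus of their own and 55 share one with another coding gene and were left out. The members and lists were chosen with earlier results of these data known. The naming rule takes SMC5 and the SMC5/6 list, the 10 loci of smallest p in each direction where fewer than 10 were called, at most 4 members a list, by p, and called interaction loci. Some genes that the rule names are left out of the text and figures. The text names more interferon-stimulated members than the rule allows, among them MX1, the 1 with a negative difference. Those members were thus not all picked by the rule. FHIT was named after its values were seen. Alternatives were another pseudocount, filters, scalings, fits with other samples, a replicate block, no trend, a fold threshold of 1.5 and leaving out each sample. Gene types and lengths came from GENCODE 29. Tables and figures were made with matplotlib 3.10.9, numpy 2.4.6 and pandas 2.3.3 under Python 3.11.15.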

Additional observations from a re-analysis of the deposited data

Results flagged for a closer look

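At 6 loci the SMC5 minus GFP difference changed with doxorubicin by limma's test of the interaction, and all rest on the single doxorubicin-treated SMC5 sample. AC098934.3, AC133041.1 and AL138831.1 met the filter of 1 FPKM in 2 samples through the 1 SMC5 or GFP group in which they are above 0. Their tests thus describe loci chosen by that group. Where a group is listed at 0 the fitted value depends on the pseudocount and is no fold change.

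SVIL-AS1 had an interaction of 3.91 (adjusted p = 0.00661). It did not pass without SMC5 replicate 1, GFP-DOX replicate 1 or GFP-DOX replicate 2 (adjusted p = 0.0652 to 0.125). The locus of AL360181.1 and BANF1P2 had 4.95 (adjusted p = 0.00661) and did not pass without the same 3 libraries (0.0508 to 0.126) or with a pseudocount of 0.1 (0.0519).

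AC016292.2, a processed pseudogene of 210 bases, had 9.05 (adjusted p = 2.83e-04) and passed in all 9 alternatives. It was at 22.0 and 28.5 FPKM in GFP cells with PBS and 19.4 FPKM in SMC5 cells with doxorubicin, and listed at 0 in the other 4 samples. NSE4 cells were at 68.7 FPKM in 1 library and listed at 0 in the other 3.

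AC098934.3, of 190 bases, had −6.29 (adjusted p = 5.51e-04), with 74.1 and 80.1 FPKM in SMC5 cells with PBS and 0 listed elsewhere among the 7 samples. It did not pass with a pseudocount of 0.1 (0.0502). In NSE4 cells AC098934.3 was at 58.3 FPKM in 1 library with doxorubicin and listed at 0 in the other libraries. AC133041.1 had −4.10 (adjusted p = 0.0125), with 14.9 and 17.4 FPKM in SMC5 cells with PBS and 0 listed elsewhere among the 7 samples. AC133041.1 was also at 43.9 FPKM in 1 NSE4 library with PBS and listed at 0 in the other NSE4 libraries. It did not pass without any 1 of the SMC5 libraries with PBS or the GFP-DOX libraries (0.0866 to 0.125), with a pseudocount of 0.1 (0.372) or with a filter of 5 FPKM (0.115). AL138831.1 had −4.81 (adjusted p = 0.0405), with 20.7 and 35.3 FPKM in GFP cells with doxorubicin and 0 listed elsewhere among the 7 samples. AL138831.1 was also at 20.2 FPKM in 1 NSE4 library with doxorubicin and listed at 0 in the other NSE4 libraries. It did not pass without any 1 of the 6 libraries left out, with a pseudocount of 0.1 (0.260) or with a filter of 5 FPKM (0.0872).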

How the results depend on the processing

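No locus was called between SMC5 and GFP cells, but 1 was called with a filter of 5 FPKM, 7 with all 11 samples in the fit, 4 in PBS samples only, 6 in doxorubicin-treated samples only (there the lone SMC5 sample is assumed to vary like the other groups), 4 with the SMC5-DOX columns separate, and 0 to 7 when 1 sample was left out. The SMC5 locus passed in 5 of 20 alternatives, with a filter of 5 FPKM (5.80, adjusted p = 0.015), all 11 samples (5.84, 0.0216), separate columns (5.84, 0.00563, which counts 1 sample as 2) and without GFP replicate 1 (6.29, 0.004). The fifth was the replicate block, in which SMC5 was the 1 locus, and so the 1 list member, called (5.63, adjusted p = 0.0488). It did not pass in the other 15, such as no filter (0.503), PBS samples only (0.351) and doxorubicin-treated samples only (0.207). Its leave-one-out values ran from 5.38 to 6.29. Locus-wise deviations of same-numbered samples correlated at −0.01 to 0.07, and the main fit did not pair samples by number. The mitochondrial share was nevertheless higher in replicate 1 than in replicate 2 of every group. With PBS it was 35.3 against 28.9% in GFP and 40.9 against 30.8% in SMC5 cells. With the replicate block 731 loci had a limma unadjusted p under 0.05, against 555 in the main fit. Whether the numbers mark a shared batch was not tested. List members called were SMC5 with a filter of 5 FPKM (1), SMC5 and NSMCE4A with all 11 samples (2) and with separate columns (2), and 0 to 1 with 1 sample left out. The interaction count was 2 with a pseudocount of 0.1 and 3 to 16 with 1 sample left out (16 without GFP replicate 1, 13 without GFP replicate 2, 3 without SMC5 replicate 1 or GFP-DOX replicate 1). The count against NSE4 cells was 1 to 7 (1 without NSE4 replicate 2, 6 without SMC5 replicate 1, 7 without SMC5 replicate 2). The cause of these shifts was not tested.

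Signs turned at 4 SMC5/6 genes. In doxorubicin-treated samples only NSMCE1 was at −0.137, NSMCE2 at −0.0883, NSMCE3 at −0.157 and SLF1 at −0.187. NSMCE3 was also at −0.00832 with upper quartile scaling, −0.0196 with all 11 samples and −0.0198 with separate columns. With 1 sample left out, NSMCE1 ran from −0.0504 to 0.180, NSMCE2 from −0.0305 to 0.123 and NSMCE3 from −0.0802 to 0.117. Of the 19 named loci other than SMC5, 5 passed in some alternative and 0 changed sign.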

Other observations

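FHIT, a tumour suppressor that spans a common fragile site, was at 575 FPKM in GFP replicate 2 and between 9.40 and 45.01 FPKM in the other 6 samples.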
